A study of Mus musculus with 4 samples.

Results

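The protein subunits of the cytosolic ribosome are encoded by the genes described here. The members were the protein-coding genes whose GENCODE symbol names a ribosomal protein of the large subunit (Rpl, Rplp) or the small subunit (Rps, Rpsa), including paralogues with suffixes such as l, al, l1 or rt. This rule found 84 genes among the 39056 genes of the count table, 52 of the large and 32 of the small subunit. A further 5 symbols of the same form are annotated as pseudogenes and were left out. Of the 84 members, 78 were measured, which means at least 1 CPM (reads relative to the scaled library total) in at least 1 library. Rpl23a and Rps16 reached that level only in libraries other than the one labelled no LPS.

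Polyadenylated RNA of mouse lung was sequenced in 4 libraries, 1 for each label: no LPS, and 8, 16 and 20 h of lipopolysaccharide (LPS, a component of the bacterial outer membrane that activates Toll-like receptor 4), given into the peritoneum at 10 mg/kg. All 4 libraries, the control included, were labelled as coming from S1PR1-GFP reporter mice, in which green fluorescent protein marks cells that express a receptor for sphingosine-1-phosphate. The labelled sort took GFP-positive cells that carried the endothelial protein CD31 and lacked the leukocyte protein CD45. The sources used here do not give the strain, age or sex of the mice, the sequence that drives the reporter or the number of animals behind a library. The title of the series names restoration of the lung vessel barrier by S1PR1-positive endothelial cells as the subject of the study. Each label had 1 library and no replicate, so no test was possible, and a difference between libraries cannot be told apart from a difference between animals, sorts or library preparations. Where 4 values are listed, their order is no LPS, 8 h, 16 h and 20 h.

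The totals were even, at 27566454 to 28905776 reads, and a level of 3 reads was 0.104 to 0.108 CPM. The labelled cell type was checked against its markers. Of 12 endothelial markers, 9 were under 1 CPM in every library, and 3 of those (Emcn, Cldn5 and Erg) had 0 reads in all 4. Pecam1, which encodes CD31, had 7, 2, 2 and 1 reads. The summed level of the 12 markers was 17.5, 35.8, 36.8 and 17.8 CPM, nearly all of it Flt1, Egfl7 and Ramp2. Of 8 mesenchymal markers 4 were measured, with sums of 422, 326, 336 and 414 CPM. Col1a1 had 2, 3, 4 and 0 reads and Col1a2 0, 0, 1 and 0. Of 8 leukocyte markers 6 were measured, with sums of 106, 72.8, 70.8 and 104 CPM, of which Cd68 alone gave 99.7, 66.5, 62.0 and 96.6, whereas Adgre1 had 0.425, 1.08, 2.78 and 0.867 CPM. Of 8 lung epithelial markers 2 were measured (Krt8 and Krt18), with sums of 51.6, 124, 126 and 52.1 CPM. The markers thus went against the labelled cell type, and every name of a group in this text stands for the library labelled with it.

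The cytosolic ribosome translates the messenger RNAs made in the nucleus. Its small subunit reads the message and its large subunit joins the amino acids, and the ribosomal proteins are needed in about equal number. Most ribosomal protein mRNAs begin with a run of pyrimidines, the terminal oligopyrimidine (TOP) motif, through which mTOR and LARP1 control their translation. These short, abundant mRNAs have also been copied back into the genome many times as processed pseudogenes, which makes it hard to assign a short read to the gene that made it.

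How much of each member was copied was therefore measured first. Every 50-base window of the coding sequence of a member was looked up in the annotated transcripts of all genes outside its locus. In 30 members every window had an exact copy in another gene. A further 38 members had copies of 50 to under 100% of their windows, and 16 members of under 50%. In all, 194 pairs of a member and another gene shared at least 50% of the member's coding windows. They involved 66 members, and 176 of these pairs were with processed pseudogenes. Rpl21 had the most such copies, 12, and Rps2 had 10. The paralogues Rpl3l and Rpl39l had no copied window.

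The sequences of 2 members show how close the copies are. Rps6, at chr4:86854660-86857412 on the minus strand of GRCm38, encodes the small-subunit protein that S6 kinases phosphorylate downstream of mTOR, and the processed pseudogene Rps6-ps4 on chromosome 2 differed from it at 0 of 747 coding bases. Rpl9, at chr5:65388364-65391444 on the minus strand, encodes a protein near the base of the ribosomal stalk, and Rpl9-ps6 on chromosome 19, which is annotated as protein coding, differed at 1 of 576. The first 60 coding bases of Rps6 are printed with coding bases 241 to 300 of Rpl9 and the same stretch of its copy, where a capital marks the base that differs.
Rps6: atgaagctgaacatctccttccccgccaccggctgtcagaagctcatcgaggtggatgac
Rpl9: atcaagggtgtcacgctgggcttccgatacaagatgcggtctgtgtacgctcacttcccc
Rpl9-ps6: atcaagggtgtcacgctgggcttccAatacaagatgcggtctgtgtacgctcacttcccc

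Counted levels differed widely among genes whose products are built into the same particle. In the library labelled no LPS, CPM per kb of the longest protein-coding transcript ranged from 0.893 for Rps16 to 1933 for Rplp1, with a median of 78.6 over the measured members. Among the 5 highest levels, beside that of Rplp1, an acidic protein of the stalk that recruits elongation factors, were those of Rpl4 at 1828, Rpl8 at 1424 and Rplp0 at 934 CPM per kb. Rpl4 and Rpl8 lie near the exit tunnel and the peptidyl transferase centre, and Rplp0 anchors the stalk. The lowest after Rps16 were Rps6 at 1.41, Rpl23a at 1.52, Rpl19 at 2.78 and Rps29 at 2.81 CPM per kb. All 5 of the lowest had every coding window in copy, and none of the 5 highest had.

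Level and copying went together across the members. The median with no LPS was 5.64 CPM per kb for the 27 measured members with every coding window in copy, 129 for the 38 with 50 to under 100%, and 414 for the 13 measured members with under 50%. The share of copied windows and CPM per kb had a Spearman rho of -0.83 over the 78 measured members, a description of 1 library whose points share its depth and its counting. Of the 30 members with every window in copy, 25 had under 1000 reads with no LPS, and the 5 others were led by Rpl41 with 2746 reads. The copies themselves held few reads. Of 179 annotated copies in the table, 51 had 0 reads with no LPS and the median was 3 reads. At least 100 reads were counted in 11 of them. The processed pseudogene with the most was Rpl14-ps1, with 2000, 1911, 2033 and 1599 reads, followed by Gm10036, a copy of Rpl11, with 1236, 1379, 1282 and 1403. Among the 11 were also protein-coding genes whose annotated transcripts hold a copy, such as Uimc1, with 1761, 1674, 1658 and 1761 reads and a copy of Rpl29. The sources used here do not say how reads that match several genes were treated, and the part of this in the levels was not tested.

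**Figure D1:**
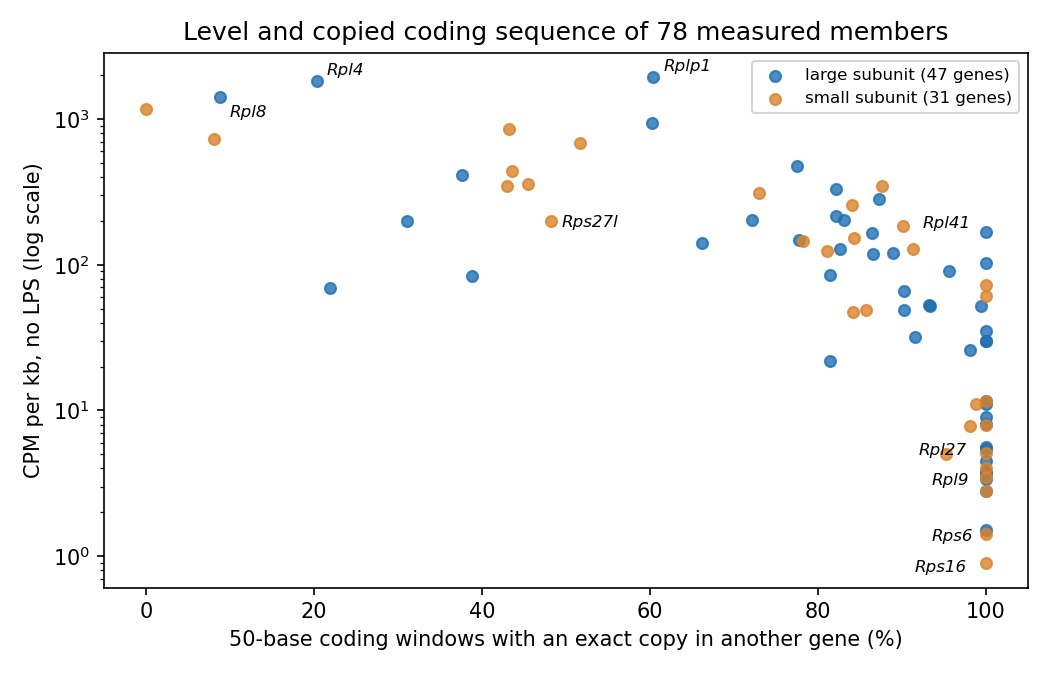
CPM per kb of the longest protein-coding transcript in the library labelled no LPS (y axis, log scale) against the share of 50-base coding windows with an exact copy in another gene (x axis, %), 1 point for each of 78 measured members, coloured by subunit. Members with under 50% of windows in copy lie at 69.7 to 1828 CPM per kb, and those with every window in copy reach from 0.893 (Rps16) to 167 (Rpl41).

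The members held 1.74, 1.69, 1.70 and 1.74% of all counted reads. The exact Clopper-Pearson 95% intervals were 1.73 to 1.74%, 1.69 to 1.70%, 1.69 to 1.70% and 1.74 to 1.75%. Like every interval here they cover counting error only, since each label had 1 library. The reads also carry no molecular identifiers, so reads copied from 1 molecule cannot be told apart. The large subunit took 1.09, 1.08, 1.09 and 1.10% and the small subunit 0.648, 0.613, 0.608 and 0.643%. In the small subunit the intervals at 8 and 16 h, 0.610 to 0.616% and 0.605 to 0.611%, lay below those of the other libraries, 0.645 to 0.651% and 0.640 to 0.646%. Of the 31 measured small-subunit members, however, 15 had a log2 ratio to no LPS above 0 and 16 below 0, at 8 h and at 16 h alike. The share of members with every coding window in copy was higher at 8 and 16 h, with 0.0480, 0.0576, 0.0578 and 0.0517%. Their annotated copies outside the set held 0.0117, 0.0121, 0.0118 and 0.0131%. The mitochondrially encoded transcripts, which move with RNA quality and cell type, held 1.80, 1.36, 1.40 and 1.90%, so that they too were lower at 8 and 16 h. Of protein-coding reads without these transcripts, the members held 1.80, 1.74, 1.75 and 1.81%. The part of the mitochondrially encoded transcripts in the shares above was otherwise not tested. In bulk RNA, fewer cells of a type and less RNA per cell cannot be told apart.

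Most members stayed within a ratio of 1.5 between the libraries. The ratio of the highest to the lowest of a member's 4 CPM values had a median of 1.22 over the measured members, was under 1.5 in 60 and reached 2 in 8. This ratio was not computed over all measured genes. The median absolute log2 ratio to no LPS was 0.176, 0.184 and 0.138 in the members at 8, 16 and 20 h. In all measured genes it was 0.270, 0.276 and 0.080, so the members were closer to no LPS at 8 and 16 h but not at 20 h. Rplp0, often used as a reference gene, had 1268, 1287, 1281 and 1264 CPM, a ratio of 1.02. Rpl4 had 2811, 2709, 2665 and 2708 CPM. Rps19, a small-subunit protein whose loss causes Diamond-Blackfan anaemia, had 160, 167, 154 and 178 CPM. These 3 members did not share an order of the libraries. Rpsa, the small-subunit protein first known as a laminin receptor precursor, had 21.3, 25.4, 23.4 and 22.9 CPM. Rplp2, which pairs with Rplp1 in the stalk, had 137, 141, 176 and 183 CPM and was higher at 16 and 20 h, by folds of 1.29 (95% counting interval 1.24 to 1.34) and 1.34 (1.28 to 1.40) over no LPS, while Rplp1 had folds of 1.03 and 0.993. All 8 members with a ratio of at least 2 had every coding window in copy, where the median ratio was 1.62, against 1.17 with 50 to under 100% and 1.11 with under 50%.

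Each pair of libraries was then compared gene by gene, with counts scaled by edgeR's TMM factors. A gene was called when its fold was at least 2, the exact 95% counting interval of the fold excluded 1 and the higher library had at least 1 CPM, so a call compares libraries and not conditions. The comparisons with no LPS share that library. Log2 ratios were computed with a prior count of 2.

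The library labelled 8 h LPS had 4 members higher than with no LPS and 0 lower, while 4.19% of the 11803 measured genes were higher and 4.13% lower. The 4 were Rpl9, Rpl10, Rps6 and Rpl23a, all with every coding window in copy. Rpl9 had 258, 632, 608 and 310 reads, a 2.41-fold difference at 8 h (2.08 to 2.80). Rpl10, a late-joining protein near the peptidyl transferase centre, had 279, 609, 547 and 251 reads, a 2.15-fold difference (1.86 to 2.49). Both were high at 8 and 16 h and close to the level with no LPS at 20 h. Rps6 had 35, 81, 56 and 42 reads, 2.28-fold (1.51 to 3.49) at 8 h. Rpl23a, a protein at the mouth of the exit tunnel where the signal recognition particle docks, had 24, 53, 75 and 34 reads, 2.17-fold (1.32 to 3.68). Of these only Rpl9 and Rpl10 had over 100 reads in the higher library. Rpl23a was at 0.849 CPM with no LPS and counted as measured only through the other libraries. Without the members measured in that way, 3 were called at 8 h, 2 at 16 h and 2 between 16 and 20 h.

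Under the threshold at 8 h, the next highest were 3 more members with every window in copy. The large-subunit member Rpl28 had 114, 222, 204 and 133 reads, a fold of 1.92 (1.52 to 2.42) at 8 h. The small-subunit member Rps13 had 129, 246, 213 and 114 reads, a fold of 1.88 (1.51 to 2.34), and Rpl36a 77, 141, 123 and 95, a fold of 1.80 (1.36 to 2.41). These 3 were again highest at 8 h and next highest at 16 h. Rpl5 and Rpl11, which form a particle with 5S rRNA that binds Mdm2, had 466, 683, 741 and 513 reads and 106, 181, 150 and 120 reads, with folds of 1.44 (1.28 to 1.63) and 1.68 (1.32 to 2.16) at 8 h. At a fold of at least 1.5, 11 members were higher and 0 lower, against 10.4% and 9.41% of all measured genes.

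Of the 11, 10 had every coding window in copy, and the other was Rpl10a, a protein of the mobile L1 stalk, with 99.5% of its windows in copy. Rpl10a had 1218, 2061, 2060 and 2065 reads, with folds of 1.67 (1.55 to 1.79), 1.73 (1.61 to 1.85) and 1.73 (1.61 to 1.86) at 8, 16 and 20 h. Rpl12, a protein at the stalk base, had 1053, 1637, 1513 and 1516 reads, with folds of 1.53 (1.42 to 1.66), 1.47 (1.35 to 1.59) and 1.47 (1.36 to 1.59). In both, the libraries at 8, 16 and 20 h lay close together and above no LPS.

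At the lower end at 8 h no member was called. Rpl30, a large-subunit protein that in yeast binds its own transcript, had 5064, 3733, 4112 and 4057 reads, a ratio of 0.726 (0.696 to 0.757) at 8 h. The ratio was 0.787 (0.736 to 0.840) for Rpl22l1, 0.795 (0.675 to 0.935) for Rpl17, 0.831 (0.799 to 0.864) for Rpl18 and 0.857 (0.833 to 0.881) for Rpl32. The counting intervals of all 5 lay below 1. The median log2 ratio of the measured members was 0.047, beside 0.0041 over all measured genes, and its sign changed with the processing in each comparison. By class the medians were 0.41 with every window in copy, with 22 members above 0 and 5 below, -0.038 with 50 to under 100% and -0.088 with under 50%.

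The library labelled 16 h LPS had 3 members higher than with no LPS and 0 lower, against 4.13% of measured genes higher and 4.09% lower. Among the 3, Rpl9 had a fold of 2.40 (2.07 to 2.79) and Rpl23a one of 3.19 (1.99 to 5.28). Rpl10 fell just short of the threshold (1.73 to 2.32), and Rpl27 had a fold of 1.97 (1.56 to 2.49). The lowest ratios were 0.716 for Rps23 (0.576 to 0.887), a protein of the decoding centre, then 0.828 for Rpl30, 0.829 for Rpl17, 0.841 for Rpl37 and 0.842 for Rpl18. At a fold of at least 1.5, 13 members were higher and 0 lower, against 10.6% and 9.40% of all measured genes, and 12 of the 13 had every window in copy. The median log2 ratios were 0.056 over the measured members, 0.0055 over all measured genes and 0.54 over members with every window in copy, of which 22 were above 0 and 5 below.

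The 8 and 16 h libraries did not differ in any member by the rule. Between them 0 members were called, against 0.161% of all measured genes higher and 0.0763% lower at 16 h. Rpl19, with 59 and 85 reads, and Rps6, with 81 and 56, had the largest log2 ratios in each direction, 0.56 and -0.47.

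The library labelled 20 h LPS had 1 member higher than with no LPS and 0 lower, against 0.551% of measured genes higher and 0.102% lower. That member was Rpl27, a large-subunit protein, with 113, 159, 218 and 320 reads, a fold of 2.89 at 20 h (2.33 to 3.61). It was the only called member whose CPM was highest at 20 h. At a fold of at least 1.5, 4 members were higher and 0 lower, Rpl27, Rps27, Rpl10a and Rps2, against 1.72% and 0.280% of all measured genes. Rps2, a protein at the messenger RNA entrance, had 8002, 9904, 9369 and 13297 reads, a fold of 1.70 at 20 h (1.65 to 1.74). Rps27 had a fold of 1.76 (1.29 to 2.42). The lowest ratios at 20 h were 0.735 for Rps27a (0.606 to 0.890), 0.796 for Rpl17, 0.815 for Rpl18, 0.818 for Rpl30 and 0.836 for Rps21. The median log2 ratio was 0.023, beside -0.0023 over all measured genes, and 0.20 over members with every window in copy, of which 18 were above 0 and 9 below.

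Between the 16 and 20 h libraries, most members with every coding window in copy were lower at 20 h. In this pair 0 members were higher and 3 lower at 20 h, against 4.63% and 3.85% of measured genes. Rpl10 was 2.18-fold lower at 20 h (1.87 to 2.54) and Rpl23a 2.20-fold lower (1.45 to 3.41). Rps27a, which encodes ubiquitin fused to a small-subunit protein, had 261, 382, 390 and 188 reads and was 2.07-fold lower at 20 h than at 16 h (1.74 to 2.48). Rpl9 was just outside, 1.96-fold lower (1.71 to 2.25). Members with every window in copy had a median log2 ratio of -0.29, with 7 above 0 and 20 below, those with 50 to under 100% one of 0.028, with 22 above and 16 below, and the measured members together one of -0.019. At a fold of at least 1.5, 7 members were lower and 1, Rps23, was higher, against 10.2% and 10.6% of all measured genes.

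**Figure D2:**
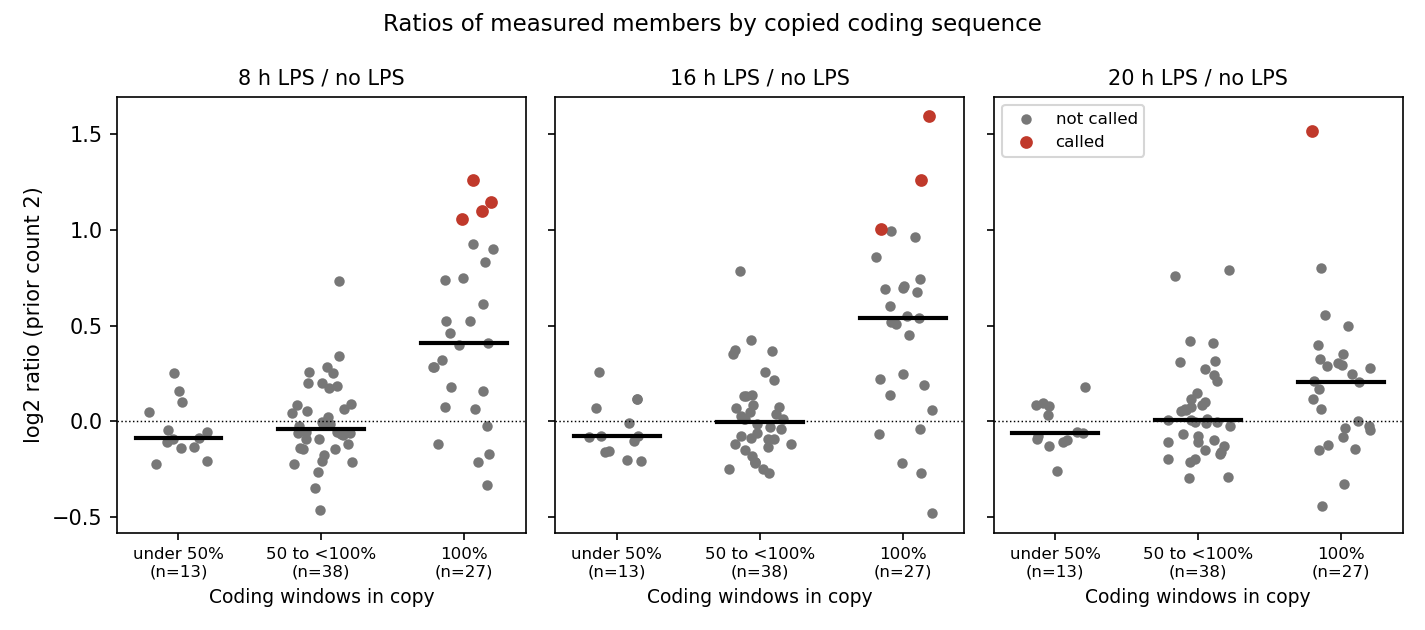
Log2 ratio to the library labelled no LPS (y axis, prior count 2) of the measured members at 8, 16 and 20 h of LPS (panels), grouped by the share of coding windows with an exact copy in another gene (x axis). Grey points are members not called, red points called members, and bars the medians of 13, 38 and 27 members, which are 0.41, 0.54 and 0.20 in the group with every window in copy and lie between -0.088 and 0.0073 in the others.

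Over the 5 comparisons 7 members were called at least once, 8.97% of those measured, beside 11.7% of all measured genes. Each of the 7 had every coding window in copy and at most 632 reads in any library. Of the 27 measured members with every window in copy these were 25.9%, beside 12.7% of the 8813 measured genes in the same range of reads with no LPS. Only the ends of that range were matched, and the median reads with no LPS were 211 in the members and 648 in those genes. The classes of copying were also set with values in view. Few reads and copying went together with the size of the ratio to a like degree. Across the 78 measured members, the absolute log2 ratio at 8 h had a Spearman rho of 0.51 with the share of copied windows and of -0.46 with mean reads, and that between 16 and 20 h of 0.50 and -0.55, as descriptions of members that share their libraries. None of the 51 measured members with fewer copied windows was called, and their median log2 ratios to no LPS were -0.053, -0.029 and -0.00091 at 8, 16 and 20 h. The reads in annotated copies of Rpl9 summed to 21, 23, 17 and 15, those in copies of Rpl10 to 25, 31, 17 and 24, and those in copies of Rps6 to 5, 3, 1 and 6. The copies of these 3 genes thus held far fewer reads than the genes. Those of Rpl23a had 21, 36, 40 and 29 reads, beside 24, 53, 75 and 34 for Rpl23a itself. With the reads of member and copies summed, 6 of the 8 calls against no LPS remained past the threshold and 2 did not, among them that of Rpl23a at 8 h, with a fold of 1.95. The endothelial sums given above, nearly all Flt1, Egfl7 and Ramp2, were also higher in the 8 and 16 h libraries than in the others. So were the lung epithelial sums, nearly all Krt8 and Krt18. Pecam1, with 7, 2, 2 and 1 reads, and Epcam, with 2, 3, 2 and 1, were under 1 CPM in every library. The mesenchymal sums, the mitochondrial share and the leukocyte sums, which Cd68 carried, were lower in the 8 and 16 h libraries. Of the measured mesenchymal markers, Col3a1 had 168, 81.8, 83.2 and 163 CPM and Dcn 9.48, 2.96, 3.43 and 7.73. Prrx1, with 210, 209, 213 and 211 CPM, and Pdgfra, with 34.1, 31.3, 34.4 and 31.8, were nearly level. The part of these sums and shares in the calls was not tested.

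**Figure D3:**
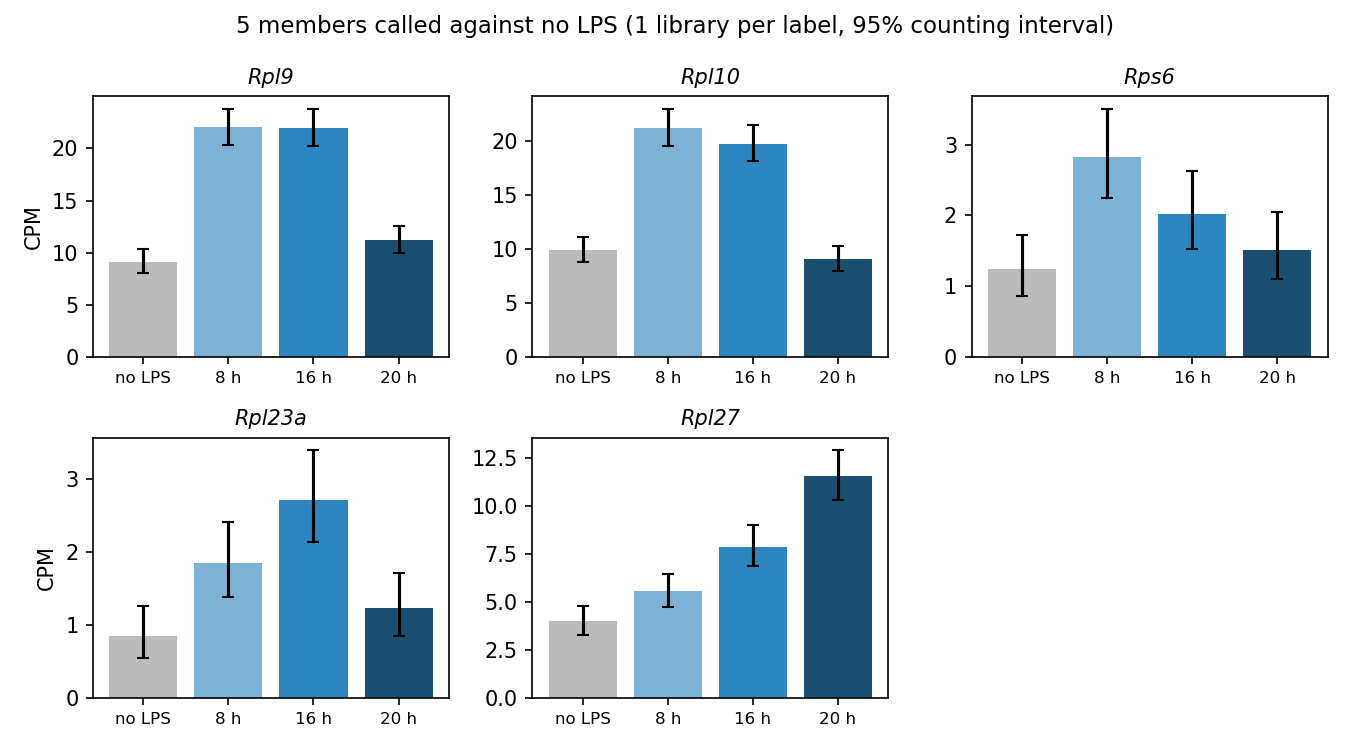
CPM (y axis, from 0, with its own scale in each panel) of 5 of the 6 members called against no LPS in the 4 libraries (x axis), 1 library per bar, with exact 95% counting intervals as error bars. Rpl9 stands at 9.13 CPM with no LPS, 21.9 CPM at 16 h and 11.2 CPM at 20 h, and Rpl27 is highest at 20 h with 11.6 CPM.

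Where a member overlaps a gene on the opposite strand, reads of the pair cannot be told apart without strand, which the sources used here do not give. This concerns 19 members, among them Rpl5, Rpl10a, Rpl12 (with Lrsam1), Rpl18 (with Sphk2), Rpl22l1, Rpl23a (with Tlcd1), Rpl28 (with Ube2s), Rpl30, Rpl32 (with Cand2), Rps2 (with Snhg9) and Rps27a (with Clhc1). On the same strand, 28 members share exons with another annotated gene, such as the small nucleolar RNA Snora70 in Rpl10.

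Paralogues give variant ribosomal proteins, and the Rps27 family shows most plainly how sequence and count lie side by side. Rps27, at chr3:90212522-90213651 on the minus strand, and Rps27l, at chr9:66946086-66949516 on the plus strand, encode small-subunit proteins, and Rps27l is a p53 target. Rps27rt, at chr9:114982366-114982739 on the minus strand, has a coding sequence that differs from that of Rps27 at 0 of 252 bases, whereas Rps27l differs at 60 bases, given in capitals.
Rps27: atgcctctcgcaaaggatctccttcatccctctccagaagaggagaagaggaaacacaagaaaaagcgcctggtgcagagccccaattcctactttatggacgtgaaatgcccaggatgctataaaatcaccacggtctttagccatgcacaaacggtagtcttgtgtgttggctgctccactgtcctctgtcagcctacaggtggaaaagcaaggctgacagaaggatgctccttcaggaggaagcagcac
Rps27l: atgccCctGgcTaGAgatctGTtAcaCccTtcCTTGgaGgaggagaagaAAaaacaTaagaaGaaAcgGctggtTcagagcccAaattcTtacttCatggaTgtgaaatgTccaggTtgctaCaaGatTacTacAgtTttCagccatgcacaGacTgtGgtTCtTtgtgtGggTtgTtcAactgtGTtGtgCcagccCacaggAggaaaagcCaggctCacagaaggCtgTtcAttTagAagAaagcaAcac

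Rps27l, with 48.3% of its coding windows in copy, had 3247, 3416, 3340 and 3399 reads. Rps27, with every window in copy, had 66, 89, 93 and 114, and Rps27rt had 14, 26, 21 and 21 reads and stayed under 1 CPM. Per kb of transcript, Rps27l stood at 200 and Rps27 at 5.10 CPM with no LPS. No member of the family was called in any comparison, and the counts of Rps27 and Rps27rt are uncertain since their coding sequences are the same.

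The other pairs differed in which partner was counted. Rpl22, a large-subunit protein, had 11482, 10090, 9743 and 11895 reads and its paralogue Rpl22l1, with 69.3% identical aligned coding bases, 2015, 1610, 1704 and 1983. Both were lower at 8 and 16 h than in the other libraries, by ratios to no LPS of 0.865 and 0.787 at 8 h and of 0.866 and 0.863 at 16 h. Rpl7 had 15548, 17809, 16727 and 13530 reads and Rpl7l1 5134, 4836, 4692 and 5155. Rpl7 was highest at 8 h and lowest at 20 h, with ratios of 1.13 and 0.888 to no LPS, and Rpl7l1 varied by a ratio of 1.11 between its highest and lowest CPM.

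Rpl36al, a paralogue of Rpl36a with 87.7% identical coding bases, had 788, 832, 800 and 707 reads, against 77, 141, 123 and 95 for Rpl36a. Per kb the order was the same, 21.9 against 5.64 CPM with no LPS. Of the tissue-restricted paralogues, Rpl10l and Rpl39l, known from the testis, had 0 reads in all 4 libraries, which at 3 reads allows up to 0.104 to 0.108 CPM. Rpl3l, known from heart and skeletal muscle, had 1, 2, 0 and 0 reads, and Rpl3 itself 3433, 4014, 3904 and 3191. Rpl39 had 2059, 1811, 1859 and 1986 reads. Rpl24 and Rpl38, the other members that were not measured, had 7 to 25 reads per library and every coding window in copy.

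**Figure D4:**
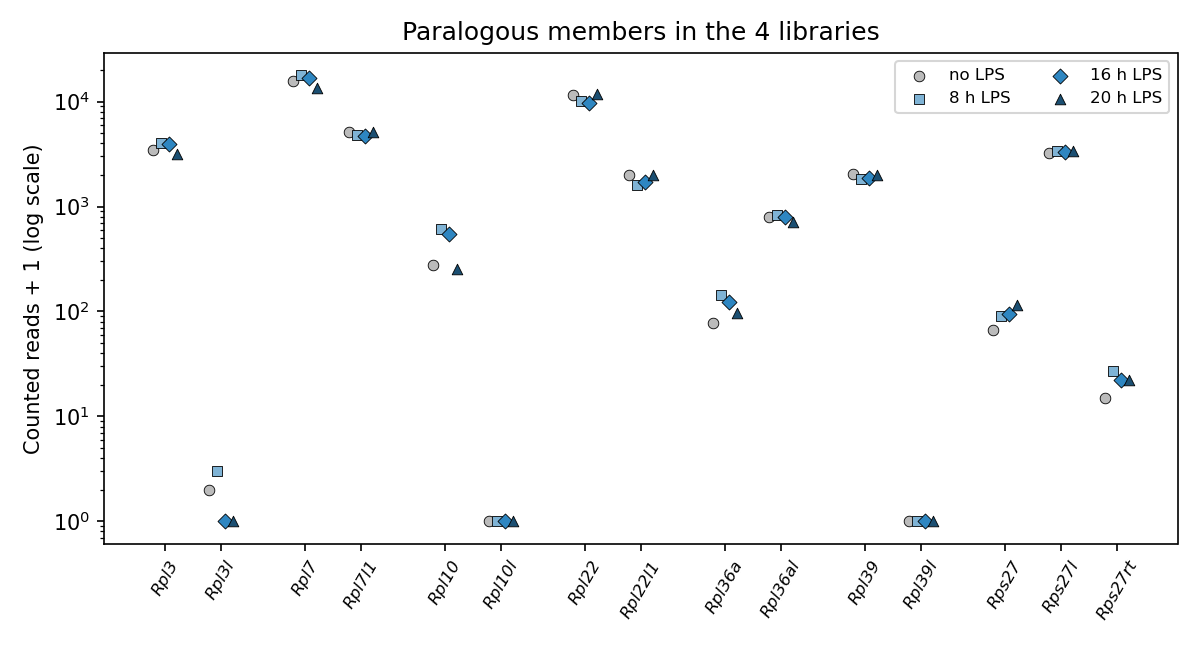
Counted reads plus 1 (y axis, log scale) of the members that have a paralogue in the set (x axis) in each of the 4 libraries (symbols). Rps27l lies at 3247 to 3416 reads and Rps27 and Rps27rt lie between 14 and 114, while Rpl10l and Rpl39l are at 0 reads in every library.

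The start sites were examined for what the members share beyond their products. RefSeq start sites of GRCm38.p6 were matched by symbol for 64 of the 84 members, in 76 windows of 250 bases before to 50 bases after the start. A pyrimidine run, defined as a C followed by 7 bases that are each C or T and lying between 20 bases before and 40 bases after the start, was found in 56.6% of the member windows and in 17.2% of all 32851 windows. On either strand of the whole window, CCGGAAG, the core bound by ETS-family factors, was in 34.2% against 8.86%. AAGATGGCG, the YY1 motif, was in 7.89% against 1.40%, which is 6 windows of only 4 members. The TATA box letters TATAAA were in 9.21% against 13.6%. By member, the pyrimidine run was found in 41 of the 64, CCGGAAG in 25 and TATAAA in 7. Windows of the same member can overlap and count a site more than once. All of these are matches of letters and not sites of binding.

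The 60 bases around the start, with 40 before it, are printed for 4 members, with the pyrimidine run in capitals. Rps6 and Rpl28 were among the higher members at 8 h, and Rpl4 and Rps9 were nearly level in all libraries. They lie at chr4:86857348-86857407 (minus strand), chr7:4792925-4792984, chr9:64173347-64173406 and chr7:3704001-3704060 (plus strand).
Rps6: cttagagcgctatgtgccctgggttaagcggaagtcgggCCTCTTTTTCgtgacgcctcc
Rpl28: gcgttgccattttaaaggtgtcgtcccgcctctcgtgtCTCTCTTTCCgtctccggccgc
Rpl4: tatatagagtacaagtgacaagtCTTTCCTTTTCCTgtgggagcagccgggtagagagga
Rps9: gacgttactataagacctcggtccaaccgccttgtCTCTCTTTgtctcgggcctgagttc

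The printed members were taken from those with the run. They therefore cannot show whether the run went with the ratios, which was not tested. Rps9, an early-binding small-subunit protein, had 469, 455, 467 and 440 CPM, and Rpl28 had 4.03, 7.73, 7.36 and 4.80. Rpl9 was also among the members counted with a run. Its run lay downstream of the 60 bases around its RefSeq start, so those bases held none of it.

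Genes that work with the ribosomal proteins were read by the same rule. It called 8.31, 8.23 and 0.652% of all measured genes at 8, 16 and 20 h against no LPS, and 11.7% in at least 1 of the 5 comparisons. In a list of 4 to 15 genes, 0 calls lies near these shares. Of 15 other mRNAs of the TOP class, which encode translation factors and their partners, 15 were measured and 0 called in any of the 5 comparisons, with median log2 ratios to no LPS of 0.010, 0.031 and -0.069. The largest log2 ratio was that of Tpt1, with 340, 270, 396 and 594 reads. Eef2, the elongation factor that moves the ribosome along the message, had 182476, 176257, 164202 and 172394 reads. Of 4 ribosomal proteins outside the symbol rule, among them Rps3a1, Fau and Rack1, none was called. Rack1, a scaffold on the small subunit, had 64995, 59885, 56403 and 59874 reads, and Fau, which encodes a small-subunit protein fused to a ubiquitin-like protein, had 69, 85, 88 and 70.

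Of 35 ribosome biogenesis genes, 35 were measured and 0 called in any of the 5 comparisons, beside 11.7% of all measured genes. Their median log2 ratios to no LPS were 0.071, 0.064 and -0.019 at 8, 16 and 20 h. Nop58, a core protein of the box C/D particles that methylate ribosomal RNA, had 11412, 14379, 14675 and 11466 reads. Of 12 genes that control ribosomal protein translation 0 were called. Tsc1, whose product restrains mTOR, had 3194, 1994, 1881 and 2902 reads, a ratio of 0.615 at 8 h, and Eif4e, the cap-binding factor, had 3106, 4190, 4102 and 3076, a ratio of 1.33. Of 78 mitochondrial ribosomal proteins 77 were measured and 0 were called against no LPS, with medians of -0.023, 0.029 and 0.055. The only call in this list was Mrps36, with 14 reads at 8 h and 28 at 16 h. That is 1.30% of the 77, beside 11.7% of all measured genes called in at least 1 of the 5 comparisons. Mrpl57 had 496, 534, 641 and 886 reads, a fold of 1.82 at 20 h.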

How the data were processed

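The values are raw read counts per gene, deposited by the authors as a table with a column for each sample. Per the submitters' processing notes, STAR, featureCounts and the mouse build mm10 were used; their versions and settings, strand and the handling of reads matching several genes are unknown here. Columns were matched to samples by name. Symbols and coordinates come from GENCODE M21 (GRCm38), where 38872 of 39056 identifiers matched, 34299 of them with version. Counts were scaled by TMM factors (edgeR 4.0.16, R 4.3.3). Intervals are exact conditional binomial (Clopper-Pearson) 95% intervals. Coding windows come from the principal transcript of each member.

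Named members were those called, the 5 highest and 5 lowest log2 ratios with at least 100 reads, the 5 highest and lowest levels per kb, the paralogues, and Rplp0, Rplp1, Rplp2, Rpsa, Rps6, Rpl5, Rpl11 and Rps19. Some genes that this rule names are counted but not reported here individually. Other names were picked with their values in view. The members and lists were chosen with earlier results of these data known, and the 3 classes of copying were set with values in view. Alternatives were DESeq2 (1.42.0) and upper-quartile scaling, library size alone, other fold, CPM and interval thresholds, prior counts of 0.5 and 10, thinning, centring by GC content or length in 20 bins, and other sets of members.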

Additional observations from a re-analysis of the deposited data

How the results depend on the processing

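No paired analysis was possible because each label has 1 library. Counts of called members changed with the thresholds. With a minimum of 10 CPM they were 2 at 8 h and 1 at 16 h. Without a minimum the count at 20 h was 2. With a fold of at least 1.5 they were 11 at 8 h, 13 at 16 h, 4 at 20 h and 8 for 20 h against 16 h, and with a fold of at least 4 they were 0 in each of these 4 comparisons. Scaling, prior count, interval level, thinning and centring by GC content or length moved no count by over 1.5 times. The median log2 ratio over the measured members lay close to 0 in every comparison, and its sign changed under at least 1 alternative in each of the 5, for example to -0.014 at 8 h with a minimum of 10 CPM.

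The next alternatives were chosen after seeing the data, as was the principal transcript length. Without members whose coding windows were all in copy, 0 members were called in each of the 4 comparisons, and the median log2 ratio turned to -0.053 at 8 h and -0.029 at 16 h, since these members carried every call. Without members with over 50% of the windows of the longest transcript in annotated copies, which took the place of a planned search of the genome that was not run, 1 was called at 8 h, 1 at 16 h, 0 at 20 h and 0 for 20 h against 16 h. Without members under 1 CPM with no LPS, the counts were 3 at 8 h, 2 at 16 h, 1 at 20 h and 2 for 20 h against 16 h. Of 72 recomputed folds of the members called against no LPS, 65 stayed past the threshold and 7 did not.

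With protein-coding reads without mitochondrially encoded genes as denominator, the members' share was 1.80, 1.74, 1.75 and 1.81% in the order no LPS, 8, 16 and 20 h, and without the 5 members with the most reads 0.944, 0.911, 0.910 and 0.952%. The median level of 78.6 CPM per kb with no LPS became 37.2 with the summed exons of each gene and 84.9 with the principal transcript, a choice of length alone. At 24 to 113 reads with no LPS, the calls of Rpl23a, Rps6 and Rpl27 rest on low counts.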
